A study of Mus musculus with 29 samples.

Results

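Histones are the proteins around which DNA is wound in the nucleus, and the genes that encode them were followed here in microglia sorted from mouse brain. The genes were chosen by symbol alone, as all genes of the count table whose symbol has the stem H1f, H2ac, H2bc, H2aj, H2av, H2ax, H2az, H3c, H3f or H4c. This rule matched 77 of 36982 genes. Of these, 60 were replication-dependent genes, 10 were variant genes and 7 were pseudogenes, processed copies or antisense transcripts. The 24 genes with 10 or more counts in at least 4 libraries are reported by name, of which 14 were replication-dependent, 7 were variants and 3 belonged to the last class. The other 53 genes together held 1007 of the 347741 histone counts (0.290%), and 11 of them had no count in any library.

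Male C57BL/6J mice were injected intraperitoneally at 10 weeks of age and again 5 weeks later, and microglia were collected 3 h after the second injection, at 15 weeks. Group names give the first injection, an optional B for BLZ945, and the second injection. P stands for phosphate-buffered saline and L for 1 mg/kg of lipopolysaccharide (LPS), a component of the bacterial outer wall that triggers an innate immune response. BLZ945 inhibits CSF1R, a receptor that microglia need to survive. It was given by gavage at 169 mg/kg per day for 5 days, starting 1 week after the first injection, so that microglia were depleted and then repopulated the brain, and the groups without B received its vehicle. The 6 groups were PP (saline at both times, vehicle, n = 5), PBP (saline at both times, BLZ945, n = 5), PL (saline then LPS, vehicle, n = 4), PBL (saline then LPS, BLZ945, n = 5), LL (LPS at both times, vehicle, n = 5) and LBL (LPS at both times, BLZ945, n = 5). No group received LPS and then saline, so every LL and LBL library also carries the second LPS dose. Microglia were gated as DAPI-negative, Ly6C-negative cells that were CD11b-high and CD45-int, and how many of the cells in the B groups were newly formed was not analysed here. The labels number the libraries within a group without tying each to 1 mouse, so each p-value measures only the spread among libraries, which may be technical.

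Histone genes fall into a pair of classes that are controlled differently. Replication-dependent genes lie in clusters, have few or no introns, and are transcribed mainly while DNA is copied; their mRNAs end in a conserved stem-loop that the protein SLBP binds, in place of a poly(A) tail. Variant genes such as H3f3a, H3f3b and H2az1 lie alone, carry introns and poly(A) tails in most cases, and supply histones throughout the cell cycle. They are thus a source of new histone in cells that seldom divide, such as adult microglia. No H2B or H4 gene was classed as a variant here. The libraries were made from polyadenylated RNA, so counts of replication-dependent genes come from whatever part of their transcripts was captured by that step, and that part was not measured here.

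The stem-loop sequence is shown first because it is the feature by which replication-dependent histone mRNAs are recognised. The conserved histone stem-loop, a run of 16 bases written here as DNA, was searched in the GENCODE transcripts of build GRCm38 and found in 74 of 55450 annotated genes (0.133%). It was found in 35 of the 60 replication-dependent genes and in 12 of the 14 reported ones, with H2bc4 and H2bc21 as the exceptions. H2ax was the variant among the reported genes in which it was found. Some transcripts without it are short, such as those of H4c12 (312 bases) and H2bc13 (381), while those of H2bc4 (1156) and H2bc21 (2620) are longer. The search covers annotated sequence only, so a gene without a match is not shown to lack the stem-loop. Capitals mark the whole stem-loop, the ends of which pair with each other.
H2bc6: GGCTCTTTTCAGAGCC
H3c3: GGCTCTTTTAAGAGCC
H4c4: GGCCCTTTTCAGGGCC
H4c14: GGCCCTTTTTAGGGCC
H2ax: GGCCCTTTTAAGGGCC
The H2bc6 form was shared by H1f2, H1f4, H2ac6, H2ac8, H2bc8 and H3c4, the H3c3 form by H3c6, and the H4c14 form by H4c9. Of the 14 reported replication-dependent genes, 11 had an annotated transcript that ran on for 100 bases or more past the stem-loop, against 5 of the 46 that were not reported. Only genes with an annotated stem-loop could be counted, which were 12 of the 14 and 23 of the 46. A longer gene model also collects more reads, and the search and the limit of 100 bases were chosen with the values known, so these counts are a description.

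The 250 bases before the transcription start are shown for 3 replication-dependent genes that were called lower in both comparisons of LPS with saline and for H3f3b, the histone gene with the most counts, which was called higher in both. They come from the RefSeq promoter table of build GRCm38.p6, which is not the build of the counts (GRCm39), and which held 18 of the 24 reported genes. The motifs were chosen with the values known. Both strands were searched for CCAAT, for the octamer ATTTGCAT and for the TATA box TATAAA, which capitals mark on either strand, and no matches of different motifs overlapped in these genes.
H2bc6, chr13:23585971-23586220, minus strand: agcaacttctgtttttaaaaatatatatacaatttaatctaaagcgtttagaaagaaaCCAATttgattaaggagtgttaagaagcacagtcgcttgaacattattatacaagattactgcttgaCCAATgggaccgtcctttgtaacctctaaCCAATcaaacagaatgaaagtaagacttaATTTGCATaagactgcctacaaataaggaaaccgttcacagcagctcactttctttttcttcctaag
H2ac6, chr13:23683960-23684209, minus strand: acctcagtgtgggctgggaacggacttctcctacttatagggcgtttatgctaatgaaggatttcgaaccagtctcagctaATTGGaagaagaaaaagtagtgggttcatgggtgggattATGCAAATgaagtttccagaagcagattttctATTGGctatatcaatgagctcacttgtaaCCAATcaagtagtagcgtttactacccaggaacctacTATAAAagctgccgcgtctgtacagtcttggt
H2bc8, chr13:23571150-23571399, plus strand: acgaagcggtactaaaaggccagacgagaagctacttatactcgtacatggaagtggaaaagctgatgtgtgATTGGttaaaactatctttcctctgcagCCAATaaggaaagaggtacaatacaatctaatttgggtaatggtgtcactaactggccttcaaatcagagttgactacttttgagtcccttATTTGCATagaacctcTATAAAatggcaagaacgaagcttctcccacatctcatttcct
H3f3b, chr11:116024505-116024754, minus strand: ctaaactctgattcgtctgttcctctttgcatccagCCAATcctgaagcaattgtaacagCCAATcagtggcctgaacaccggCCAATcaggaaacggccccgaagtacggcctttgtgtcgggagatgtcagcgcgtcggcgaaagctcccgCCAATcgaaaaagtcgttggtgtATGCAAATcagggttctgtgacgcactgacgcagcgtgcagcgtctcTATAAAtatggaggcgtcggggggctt
CCAAT was found in 47 of 55 replication-dependent promoters (85.5%), in 5 of 6 promoters of reported variants (83.3%) and in 33.8% of all 32851 promoters. The octamer was found in 13 of the 55 (23.6%), in 7 of 15 H2B promoters (46.7%) and in 1.60% of all promoters. The TATA box was found in 27 of the 55 (49.1%) and in 12.4% of all promoters. Among the 6 variant promoters, the octamer and the TATA box were each found in 1 (16.7%). A motif of the inflammatory factor NF-kB was searched as well and found in 1 of the 55 (1.82%), in 0 of the 12 promoters of reported replication-dependent genes and in 1.41% of all promoters. H2bc6 had another promoter in the same source, chr13:23621095-23621344, which is not shown. That window held 3 matches of CCAAT, 0 of the octamer and 0 of the TATA box. H2bc8 and H2ac8 are transcribed away from each other, and their windows overlap. A match says only that these letters are present in the window.

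Levels are given as CPM, counts divided by a library size that is corrected for composition and set to a common scale, and levels of different genes are compared per kb of annotated exon. H3f3b, 1 of a pair of genes for the replacement H3 protein, stood far above the rest at 427 CPM per kb and held 81.1% of all histone counts. H2az2 (29.2 CPM per kb), which encodes an H2A.Z protein, and H1f0 (24.2), the linker histone of differentiated cells, followed. The most abundant replication-dependent gene was H2bc4 (20.0 CPM per kb), ahead of H1f2 (7.74), H4c4 (5.47), H3c6 (3.45) and H2bc6 (2.48). The place of H3c6 above H2bc6 rests on PP replicate 1 (18.8 CPM) and PBP replicate 1 (36.8 CPM). Elsewhere H3c6 was at 3.06 CPM or less. The variants H2ax (16.4), H2aj (14.5), H3f3a (12.3) and H2az1 (8.14) lay between H2bc4 and H1f2. Only 10 of the 24 reported genes had 10 or more counts in every library, so most replication-dependent values rest on few reads. Several genes are uncertain for another reason. H3f3c and H3f3a-ps2 are processed copies close in sequence to H3f3a, and H3f3aos lies antisense to it with 160 shared exon bases, while the strand setting of the counting is not given in the sources used here. H1f4 and H2bc6 share 496 exon bases on the same strand in the GRCm38 annotation, and near-identical coding regions can share reads across the whole family.

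Library totals ran from 5670450 to 12671476 counts. All 10 microglial marker genes were present in every group, and their sum ran from 49577 to 71530.4 CPM in the saline libraries and from 36371 to 55837 CPM in the LPS libraries. In all, 23 of the 24 reported genes passed the count filter and were tested; H4c9 (106 counts in all) was not. H4c3 (105 counts) passed that filter without meeting the reporting rule and is left out of the counts of tested histone genes. The mean RNA quality number, which scores how intact the RNA was, was highest in PP (8.86) and lowest in PBL (7.64). The lowest single library was PL replicate 3, at 6.5. Summed neutrophil markers (7 genes) reached 125 to 476 CPM in PBL libraries, against 0 to 35.1 in the other groups, and summed monocyte markers (6 genes) 11.7 to 61.8 CPM in PBL against 4.27 to 23.3 elsewhere. Summed astrocyte markers (6 genes) were 379 to 589 CPM in PP and PBP and 658 to 1020 in the LPS groups. Summed neuronal markers (8 genes) were 11.3 to 42.4 CPM in PP and PL and 21.2 to 192 in the other groups, and summed lymphocyte markers (6 genes) did not exceed 1.21. Summed means of red blood cell markers (5 genes) ran from 4.03 CPM in PP to 79.8 in PBL, those of border-associated macrophages (6 genes) were 65.1 to 101 without BLZ945 and 16.8 to 36.3 with it, and those of endothelial cells (5 genes) were 21.7 to 37.8 without and 9.07 to 13.2 with it. Their part in the histone results was not tested. Sorting day and sorter nearly coincided with group: day 5 held PP and PL replicates 3 and 4, day 4 held PL replicates 1 and 2 and PBP replicates 1 to 4, day 3 held PBP replicate 5 and PBL, and the remaining days held LL and LBL. In bulk RNA, fewer cells that express a gene and less RNA per cell cannot be told apart.

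A pair of saline libraries stood apart. Summed over all replication-dependent genes, PP replicate 1 reached 165 CPM and the other PP libraries 76.6, 100.3, 103 and 79.8. PBP replicate 1 reached 269 CPM and the other PBP libraries 115, 83.7, 103 and 91.5. Each was the highest library of its group for 10 of the 23 tested histone genes, 8 of them replication-dependent, which holds for 5.19% of all tested genes. These were H1f4, H2ac6, H2ac8, H3c3, H3c4, H3c6, H4c4 and H4c14 with the variants H3f3a and H3f3b. The immediate early gene Fos, which encodes a transcription factor switched on within minutes of stimulation, was at 42.1 and 102 CPM in these 2 libraries and at 0.626 to 3.40 CPM in the other saline libraries. The proliferation gene Mki67 was at 3.59 and 1.19 CPM, inside the range of the other saline libraries (0 to 4.68). The small nuclear RNA Rnu2-10, of a class that lacks a poly(A) tail, was at 2.11 and 2.05 CPM in these 2 libraries and at 0 to 0.378 in the other saline libraries. The part of Fos or Rnu2-10 in the histone values was not tested. The pattern, Fos, Rnu2-10 and Mki67 were singled out after the values were seen. The counts and medians of PL against PP and PBL against PBP, and the genes that rest on these 2 libraries, are given below with and without them.

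**Figure D1:**
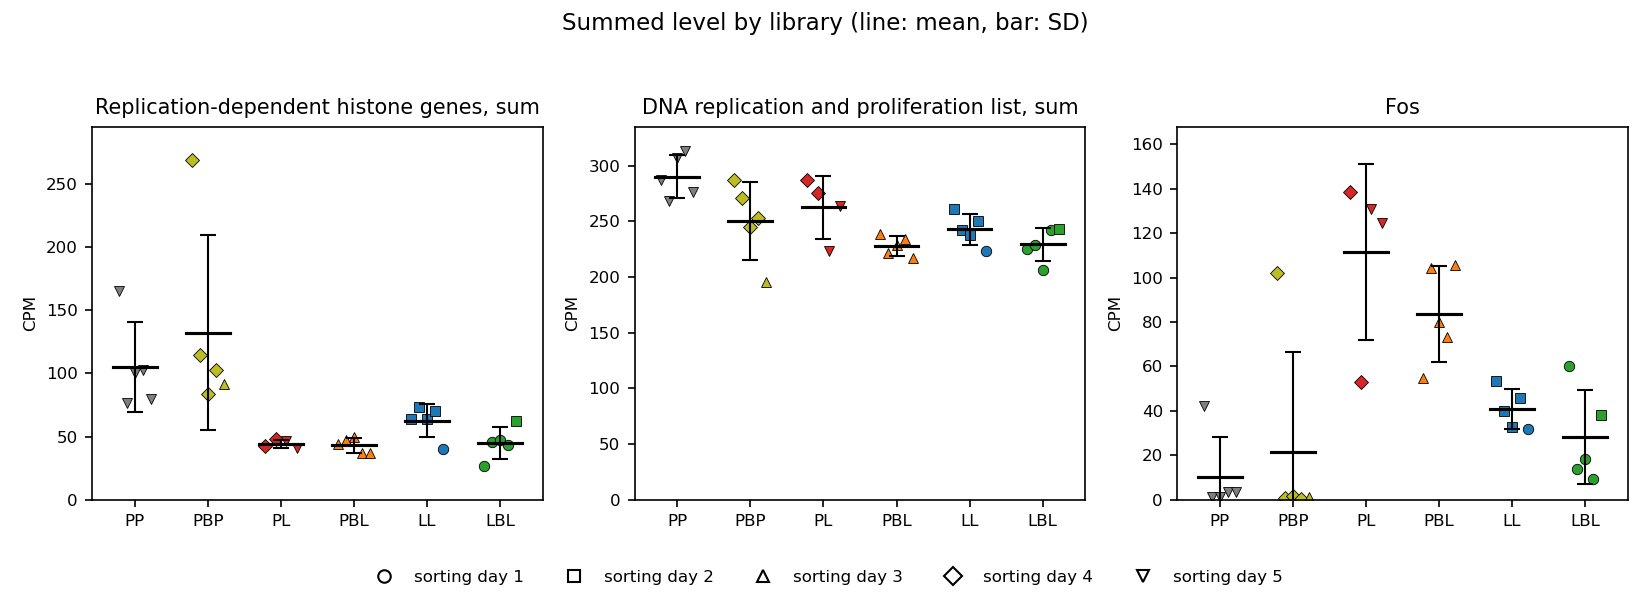
Summed CPM of the replication-dependent histone genes, summed CPM of a list of DNA replication and proliferation genes, and CPM of Fos in each of the 29 libraries by group, with marker shape for sorting day, a line at the mean and a bar for the SD. The histone sum lies between 76.6 and 269 CPM in the 10 saline libraries and between 27.0 and 73.6 CPM in the 19 LPS libraries, and PP replicate 1 and PBP replicate 1 are high for both the histone sum and Fos within their groups.

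PL against PP asks how microglia that had met neither LPS nor BLZ945 responded to a single LPS dose after 3 h. The replication-dependent genes H2bc6, H2bc4, H2bc8, H2bc21 and H2ac6 fell, and the variants H3f3b and H2ax rose. In edgeR's quasi-likelihood test with Benjamini-Hochberg adjustment over all genes, 5 of the 13 tested replication-dependent genes were called lower and 0 higher, while 2 of the 7 variants were called higher and 0 lower. Over all 23 tested histone genes, 6 were called lower, where 11.9% of all tested genes were, and 2 were called higher, against 14.2%. The median log2 fold change was -2.14 over the replication-dependent genes and 0.01 over the variants, and 0.00 over all genes. Of the 24 reported genes, 7 reached 10 counts in more libraries of PP and PBP than of the LPS groups, and 1 (H4c9) in no LPS library, so passing the filter itself favours lower values after LPS, and neither the counts nor these medians show a direction of the class. Without PP replicate 1 and PBP replicate 1 the same 5 replication-dependent genes were called lower, H3f3aos no longer passed the filter, and the median over the replication-dependent genes was -1.12. The count of lower genes was 3 with sorting day in the fit, and 3 without PL replicate 1 or without PL replicate 4.

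H2bc6 encodes a core H2B histone and fell the most clearly. Its level was 17.1, 17.7, 23.0, 22.8 and 17.6 CPM in the PP libraries and 3.48, 3.39, 0.473 and 0.397 in the PL libraries, with means of 19.6 ± 2.99 (SD, n = 5) and 1.94 ± 1.73 (n = 4). The groups did not overlap, and within PL the day 4 libraries (replicates 1 and 2) were higher than the day 5 libraries, which shared their sorting day with PP. The fit gave a log2 fold change -3.38 ± 0.43 (SE), adjusted p = 1.12e-07. Adjusted p-values are edgeR's unless another tool is named, and each SE is an approximation derived from the F statistic of its test. H2bc4, the most abundant replication-dependent gene, was at 27.3, 29.8, 32.1, 38.4 and 29.7 CPM in PP and 21.5, 22.8, 18.8 and 21.3 in PL. Each PL library lay below each PP library, by a smaller factor than for H2bc6 (log2 fold change -0.58 ± 0.17 (SE), adjusted p = 0.00908). H2bc21, an H2B gene on chromosome 3 outside the large chromosome 13 cluster, was at 4.34, 3.24, 6.58, 6.6 and 4.79 CPM in PP and at 0.249, 1.60, 3.43 and 0.132 in PL. PL replicate 3 lay inside the PP range and the other 3 libraries below it (log2 fold change -1.90 ± 0.70 (SE), adjusted p = 0.0426). The call was lost without PL replicate 1, at -1.55 (adjusted p = 0.136), without PP replicate 1, at -1.95 (adjusted p = 0.0522), and when 5 other libraries were left out in turn.

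H2ac6, an H2A gene of the chromosome 13 cluster, was at 12.8, 1.21, 2.15, 2.52 and 0.882 CPM in PP and at 0, 0, 0.237 and 0 in PL. It was at 0 in 3 of 4 PL libraries and present in each PP library, with PP replicate 1 far above the rest. The libraries held 157 counts in PP and 2 in PL, a scaled ratio of 58.7 with a 95% counting interval of 16 to 489 (exact conditional interval, counting error only). It was called lower (adjusted p = 0.0214), and not without PP replicate 1 alone, at -4.38 (adjusted p = 0.071), whereas without both PP replicate 1 and PBP replicate 1 it was -4.38 (adjusted p = 0.0287). H2bc8, an H2B gene that shares a promoter region with H2ac8, was at 2.23, 3.10, 0.633, 2.76 and 0.504 CPM in PP and at 0, 0.356, 0.592 and 0 in PL. The lowest PP libraries met the highest PL libraries, and 2 of 4 PL libraries were at 0 (log2 fold change -2.88 ± 0.94 (SE), adjusted p = 0.0204). H3f3aos, the antisense transcript at H3f3a, was at 4.46, 2.29, 1.01, 2.28 and 1.01 CPM in PP and at 0.373, 0.178, 0 and 0.265 in PL, with no overlap (log2 fold change -3.34 ± 0.99 (SE), adjusted p = 0.0106). Its reads cannot be told apart from those of H3f3a over their shared exon bases.

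The other replication-dependent genes were not called. H1f2, a linker histone, was at 18.6, 12.4, 20.6, 13.7 and 11.3 CPM in PP and 10.5, 12.3, 11.5 and 11.5 in PL (log2 fold change -0.42 ± 0.23 (SE), adjusted p = 0.185). The PL libraries were close to each other and lay within or just below the PP range. H1f4, another linker histone, was at 5.7, 0.809, 1.01, 0.720 and 1.76 CPM in PP and 0.249, 0.891, 0 and 0 in PL (log2 fold change -2.90 ± 1.13 (SE), adjusted p = 0.0553). H2ac8, an H2A gene, was at 8.55, 0.809, 0.253, 1.08 and 0.630 CPM in PP and 0.124, 0.535, 0.355 and 0.265 in PL (log2 fold change -2.81 ± 1.12 (SE), adjusted p = 0.0608). In both, PP replicate 1 was far above the rest and the remaining libraries overlapped. DESeq2 called 3 genes lower that edgeR did not, H1f4 (adjusted p = 0.0384), H2ac8 (0.0347) and H3c3 (0.0440). The log2 fold changes without PP replicate 1 and PBP replicate 1 were -2.01 ± 1.02 for H1f4 and -1.12 ± 0.97 for H2ac8. Among the H3 genes, H3c3 was at 4.46, 0.674, 1.27, 1.92 and 1.13 CPM in PP and 0.124, 0, 1.07 and 0.397 in PL. H3c4 was at 4.71, 1.48, 0.380, 0 and 0.504 in PP and 0, 0, 1.07 and 0 in PL. H3c6 was at 18.8, 0.944, 1.77, 1.68 and 0.378 in PP and 1.87, 0.535, 2.37 and 0.529 in PL, where its highest libraries exceeded 4 of 5 PP libraries. The 3 H3 genes had log2 fold changes of -2.14 ± 0.88, -2.24 ± 1.25 and -1.79 ± 1.28 (adjusted p = 0.072, 0.196 and 0.329). Of the H4 genes, H4c4 was at 18.7, 1.48, 6.07, 4.56 and 5.17 CPM in PP and 2.49, 3.74, 3.20 and 2.25 in PL, and H4c14 at 5.33, 1.62, 1.01, 1.80 and 1.39 in PP and 0.747, 0.713, 1.30 and 0.132 in PL. Both overlapped between the groups (adjusted p = 0.267 and 0.0927). With PP replicate 1 and PBP replicate 1 left out, the log2 fold changes were -1.55 ± 0.89 for H3c3, -0.99 ± 1.24 for H3c4, 0.17 ± 0.89 for H3c6, which changed sign, -0.57 ± 0.71 for H4c4 and -0.98 ± 0.67 for H4c14, and 0 of the 5 were called.

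Among the variants, H3f3b and H2ax rose. H3f3b was at 1346, 1197, 1259.7, 1318 and 1167 CPM in PP and 2143, 1747, 1461 and 1737 in PL. Each PL library lay above each PP library, with means of 1258 ± 76.4 (SD, n = 5) and 1772 ± 281 (n = 4) (log2 fold change 0.49 ± 0.11 (SE), adjusted p = 0.000827). H2ax encodes the H2A variant that is phosphorylated around DNA breaks and carries the stem-loop shown above. It was at 16.9, 15.4, 19.7, 13.8 and 13.9 CPM in PP and 16.1, 39.9, 27.9 and 34.5 in PL, where replicate 1 lay inside the PP range and the other 3 libraries above it (log2 fold change 0.89 ± 0.19 (SE), adjusted p = 0.000624). H1f0 was at 105, 66.6, 30.5, 25.7 and 78.0 CPM in PP and 33.4, 23.4, 43.1 and 32.3 in PL. Its PP libraries spread over a wide range that reached into that of PL (log2 fold change -0.88 ± 0.39 (SE), adjusted p = 0.1). H2aj, H2az1, H2az2 and H3f3a had log2 fold changes between -0.25 (H2az2) and 0.12 (H3f3a), with adjusted p of 0.199 or more. H2az2 lay below PP in each PL library and was not called. The calls of H2bc6, H2bc4, H3f3b, H2ax and H3f3aos in PL against PP, and those of H2bc6, H2bc4 and H3f3b in PBL against PBP, held under every alternative run that gave a value for them.

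**Figure D2:**
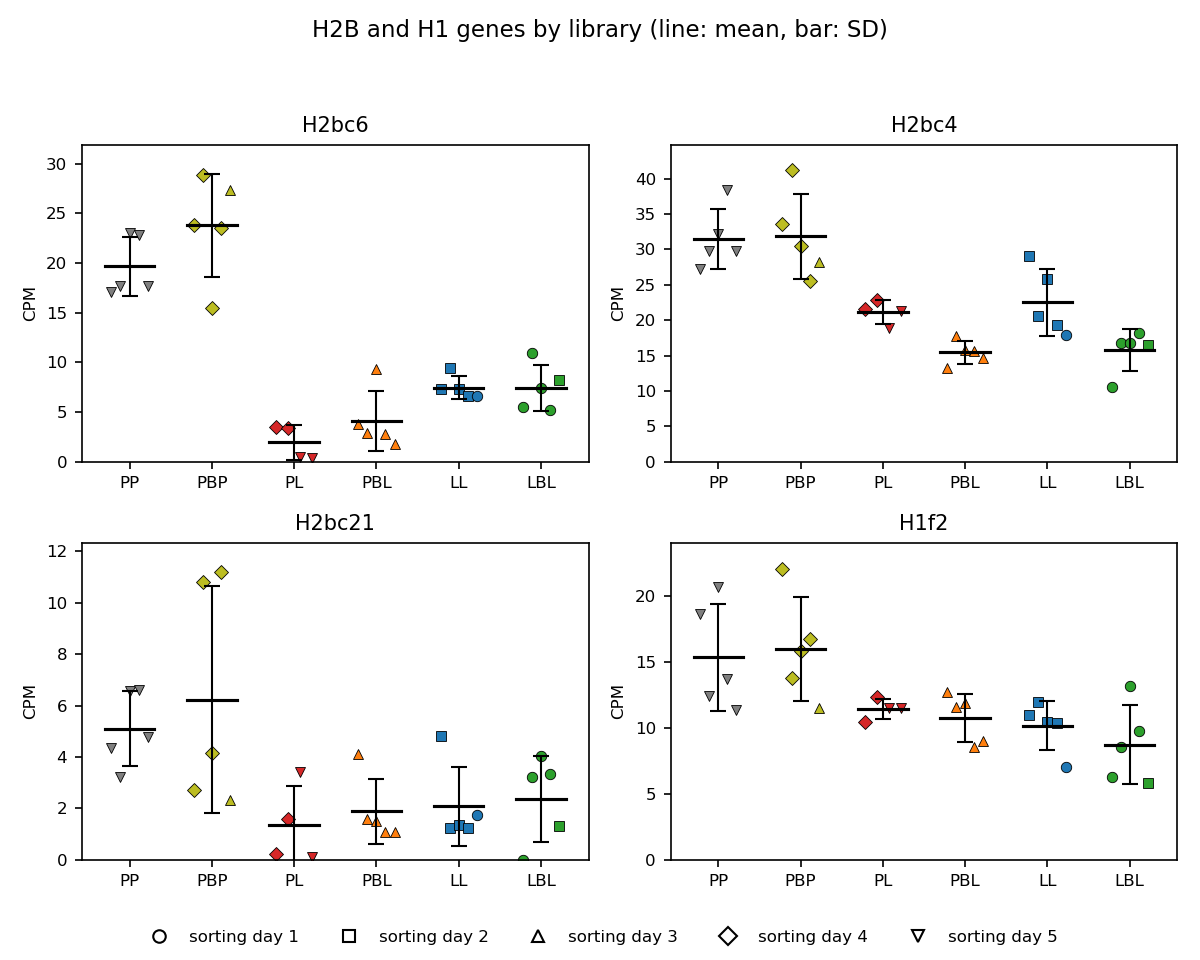
CPM of H2bc6, H2bc4, H2bc21 and H1f2 in each library by group, with marker shape for sorting day, a line at the mean and a bar for the SD. H2bc6 is at 15.5 CPM or more in the 10 saline libraries and at 10.9 CPM or less in the 19 LPS libraries, and the other 3 genes overlap between saline and LPS libraries.

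PBL against PBP asks the same question of microglia that had repopulated the brain after BLZ945. Here 11 of 13 replication-dependent genes were called lower and 0 higher, with H3c3 and H4c4 not called, and 1 of 7 variants, H3f3b, was called higher. Over the 23 tested histone genes 11 were called lower and 1 higher, where 21.5% of all tested genes were called lower and 21.5% higher. The median log2 fold change was -2.63 over the 13 replication-dependent genes, -0.15 over the variants and 0.00 over all genes, with the caution on the filter given above. When PP replicate 1 and PBP replicate 1 were left out, 7 of the 13 were called lower, with a median of -1.85, as was the variant H2aj, chosen here after its values were seen. The count of lower genes was 7 without PBL replicate 4 and 7 with no filter on counts. When only PBL and PBP entered the fit it was 5, with some genes no longer passing the count filter. With sorter or sorting day in the fit it was 2 (H2bc6 and H2bc4). PBP replicate 5 was the only PBP library sorted on day 3 with PBL, so these last fits lean on 1 library. PBL also had the lowest RNA quality and the highest neutrophil and monocyte marker levels, and their part in the result was not tested.

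H2bc6 was at 23.8, 28.8, 15.5, 23.5 and 27.3 CPM in PBP and at 3.76, 2.84, 9.35, 2.79 and 1.78 in PBL, with means of 23.8 ± 5.18 (SD, n = 5) and 4.11 ± 3.02 (n = 5). PBL replicate 3 was the highest of its group and still below each PBP library, including replicate 5, which was sorted on the same day (log2 fold change -2.54 ± 0.37 (SE), adjusted p = 7.99e-07). Without PP replicate 1 and PBP replicate 1 it was -2.54 (adjusted p = 4.11e-06). H2bc4 was at 33.6, 41.2, 30.5, 25.6 and 28.3 CPM in PBP and 13.3, 17.8, 15.8, 15.7 and 14.6 in PBL. The groups did not overlap (log2 fold change -1.04 ± 0.16 (SE), adjusted p = 2.51e-06), and with sorting day in the fit the log2 fold change was -0.91 (adjusted p = 0.012). H2bc21 was at 2.70, 10.8, 4.17, 11.2 and 2.33 CPM in PBP and 4.12, 1.60, 1.53, 1.09 and 1.09 in PBL. PBP replicates 1 and 5 lay within the PBL range and PBL replicate 1 above the rest of its group (log2 fold change -1.74 ± 0.64 (SE), adjusted p = 0.027). The call was lost in 9 of 20 alternatives, among them 6 with 1 library left out, and was -0.32 (adjusted p = 0.912) with sorter in the fit. It held without PP replicate 1 and PBP replicate 1, at -1.93 (adjusted p = 0.0216). H2bc8 was at 8.00, 0.772, 0.403, 2.32 and 1.55 CPM in PBP and 0.358, 0, 0, 0.155 and 0.410 in PBL. The lowest PBP library met the highest PBL library, and 2 of 5 PBL libraries were at 0 (log2 fold change -3.68 ± 0.90 (SE), adjusted p = 0.00133). It was -2.64 (adjusted p = 0.0203) without PP replicate 1 and PBP replicate 1.

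The linker histone H1f4 was at 9.19, 0.772, 0.672, 0.358 and 0.777 CPM in PBP and 0.179, 0, 0, 0 and 0 in PBL. It was at 0 in 4 of 5 PBL libraries and all of PBP lay above, with replicate 1 far above. The libraries held 105 counts in PBP and 1 in PBL, a scaled ratio of 77 with a 95% counting interval of 13.5 to 3069 (exact conditional interval). The fitted log2 fold change was -5.61 (adjusted p = 0.00121), and -3.73 (adjusted p = 0.0225) without PP replicate 1 and PBP replicate 1. H1f2 was at 22.1, 13.8, 15.9, 16.7 and 11.5 CPM in PBP and 12.7, 11.5, 11.9, 8.54 and 9.02 in PBL. The ranges overlapped (log2 fold change -0.58 ± 0.22 (SE), adjusted p = 0.0314), and without those 2 libraries the call was lost, at -0.43 (adjusted p = 0.128). H2ac8 was at 14.8, 1.16, 0.941, 1.52 and 1.24 CPM in PBP and 0, 0.178, 0.170, 0 and 0.137 in PBL, again with no overlap and with PBP replicate 1 far above. The libraries held 178 counts in PBP and 3 in PBL, a scaled ratio of 43.5 with a 95% counting interval of 14.6 to 213. The fit gave -5.13 (adjusted p = 0.000931), and -3.45 (adjusted p = 0.0087) without PP replicate 1 and PBP replicate 1. H2ac6 was at 22.7, 1.29, 0.672, 1.97 and 0.932 CPM in PBP and 1.08, 0.888, 0, 0 and 0.683 in PBL (log2 fold change -3.37 ± 1.28 (SE), adjusted p = 0.0352). Apart from PBP replicate 1 the ranges overlapped, and without PP replicate 1 and PBP replicate 1 the value was -1.21 (adjusted p = 0.403).

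H3c6 was at 36.8, 0.257, 0.403, 1.34 and 1.24 CPM in PBP and 0.717, 0.711, 2.04, 0.310 and 0.820 in PBL. PBP replicate 1 alone was high and the other 4 PBP libraries lay within or below the PBL range (log2 fold change -3.12 ± 1.26 (SE), adjusted p = 0.0475). Without PBP replicate 1 the log2 fold change changed sign, to 0.16 (adjusted p = 0.92), so the call rests on that library. H3c4 was at 9.51, 2.44, 0.672, 0.626 and 0.777 CPM in PBP and 0.179, 0, 0.680, 0 and 0 in PBL, where 3 of 5 libraries were at 0 (log2 fold change -3.97 ± 1.27 (SE), adjusted p = 0.0115); without PP replicate 1 and PBP replicate 1 it was -2.65 (adjusted p = 0.0865). H3c3 was at 3.35, 0.90, 0.403, 0.358 and 2.02 CPM in PBP and 0.717, 2.13, 0, 1.71 and 2.32 in PBL, with broad overlap (log2 fold change -0.02 ± 0.76 (SE), adjusted p = 0.989). H4c14 was at 18.2, 4.24, 4.43, 4.02 and 3.26 CPM in PBP and 1.61, 1.60, 0.850, 0.776 and 0.683 in PBL. Each PBP library lay above each PBL library (log2 fold change -2.63 ± 0.63 (SE), adjusted p = 0.00105), and the call held without PP replicate 1 and PBP replicate 1, at -1.85 (adjusted p = 0.0152). H4c4 was at 31.8, 5.14, 5.24, 9.21 and 5.28 CPM in PBP and 3.58, 6.75, 5.10, 3.72 and 2.46 in PBL. Only PBP replicates 1 and 4 exceeded the PBL range (log2 fold change -1.40 ± 0.75 (SE), adjusted p = 0.134).

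**Figure D3:**
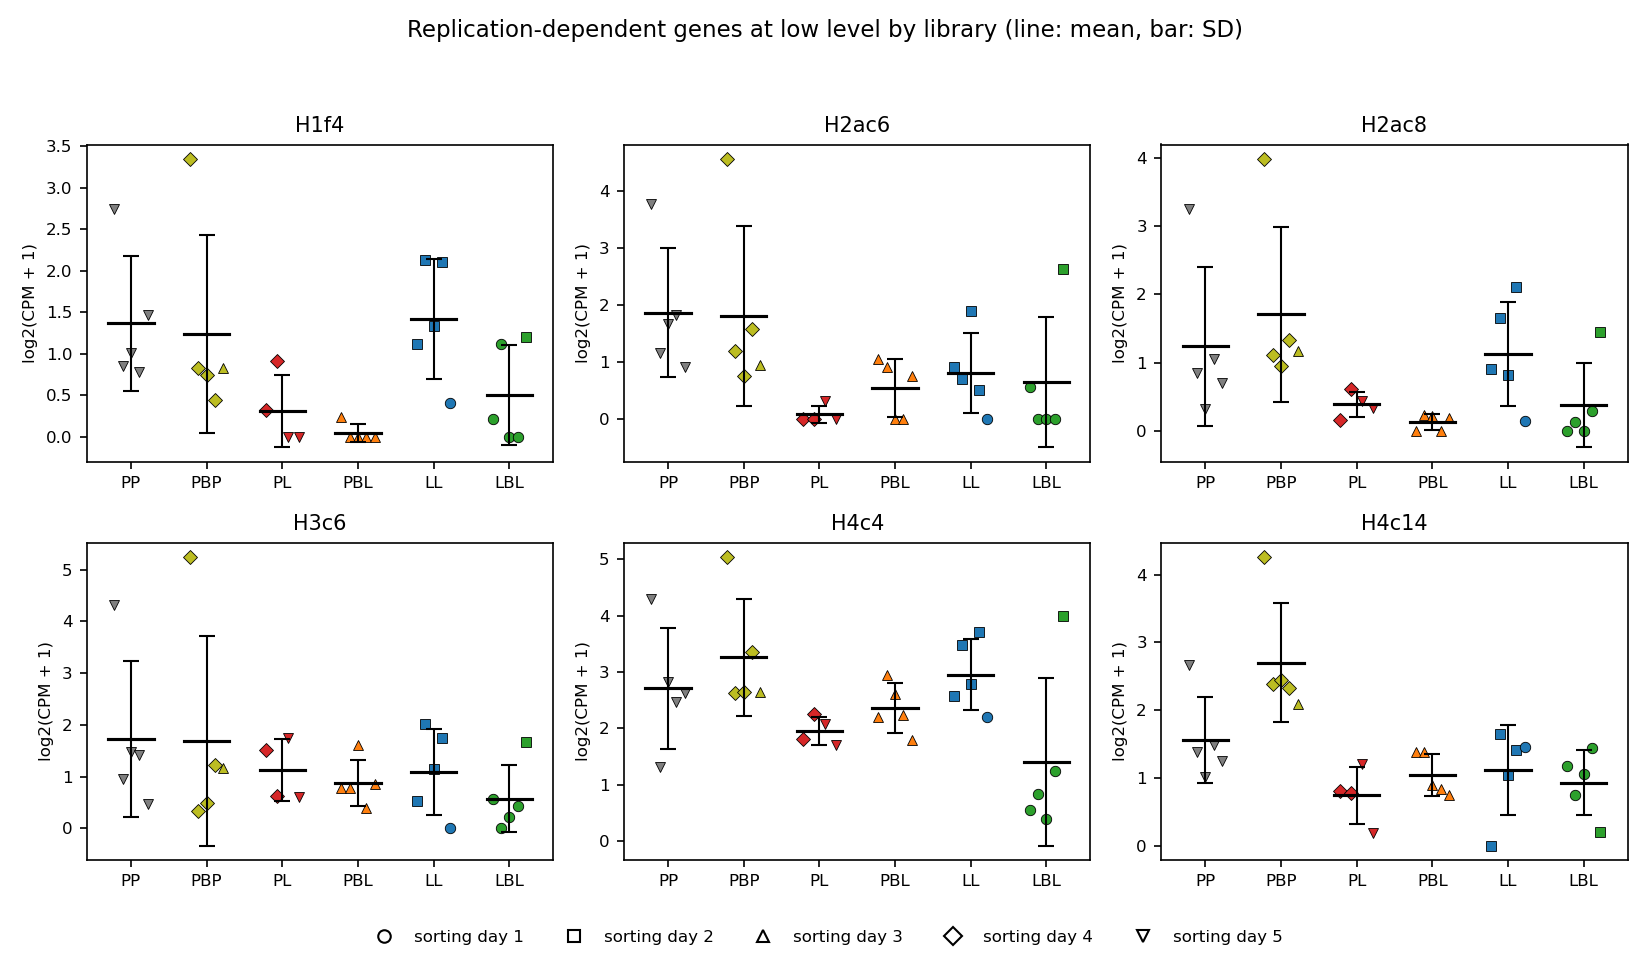
Level of H1f4, H2ac6, H2ac8, H3c6, H4c4 and H4c14 in each library by group as log2(CPM + 1), with marker shape for sorting day, a line at the mean and a bar for the SD. PP replicate 1 and PBP replicate 1 are the highest libraries of their groups for all 6 genes, and the day 2 libraries of LL and LBL lie above the day 1 libraries for H1f4, H2ac8 and H4c4.

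H3f3b was at 1215, 999.7, 1109.8, 895 and 809 CPM in PBP and 1622, 1156, 1253, 1239 and 1231 in PBL (log2 fold change 0.37 ± 0.11 (SE), adjusted p = 0.00492). The PBL libraries were higher on average, with the lowest of them inside the PBP range. H2ax was at 13.5, 18.5, 20.2, 19.0 and 13.5 CPM in PBP and 22.6, 22.9, 19.9, 22 and 20.6 in PBL (log2 fold change 0.35 ± 0.19 (SE), adjusted p = 0.129), and H1f0 at 17.7, 63.8, 92.0, 69.0 and 67.9 in PBP and 49.1, 52.9, 40.8, 63.8 and 72.9 in PBL (log2 fold change -0.15 ± 0.36 (SE), adjusted p = 0.77). Both overlapped and neither was called. H3f3aos, called in PL against PP, had a log2 fold change of -2.08 ± 0.88 (adjusted p = 0.0554) with edgeR and was called with DESeq2 (adjusted p = 0.0469). The difference between the responses with and without BLZ945, (PBL - PBP) minus (PL - PP), was tested as an interaction in the same fit. EdgeR called 0 of the 23 histone genes and 0.0% of all tested genes, 0 histone genes and 2120 of all 16632 had an unadjusted p under 0.05, and DESeq2 called 0. The smallest p among the histone genes was that of H2bc4 (-0.47 ± 0.23 on the log2 scale, adjusted p = 0.393). The larger number of calls in PBL against PBP is therefore not shown to be a different response.

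LL against PL and LBL against PBL ask whether an LPS dose 5 weeks earlier left a mark on the response to the second dose. PL is also the group set against PP above, and PBL the group set against PBP, so high or low values in PL or PBL enter both. In LL against PL, 1 replication-dependent gene was called higher and 1 variant lower, where 0.752% of all tested genes were called higher and 2.03% lower. H2bc6, called lower in PL than in PP, was at 7.30, 9.42, 7.28, 6.64 and 6.57 CPM in LL, with a mean of 7.44 ± 1.16 (SD, n = 5). Each LL library lay above each PL library and below each PP library (log2 fold change 1.99 ± 0.43 (SE), adjusted p = 0.00488). H3f3b was at 1488, 1160.0, 1240.2, 1257 and 1404 CPM in LL, which overlapped PL from below (log2 fold change -0.44 ± 0.11 (SE), adjusted p = 0.0228). LL and PL share neither sorter nor sorting day, so day and group cannot be told apart here. With sorter in the fit, which rests on PBP for the size of the sorter effect, H2bc6 was 1.73 (adjusted p = 0.337) and H3f3b -0.05 (adjusted p = 0.943). With only LL and PL in the fit they were 1.99 (adjusted p = 0.0503) and -0.42 (adjusted p = 0.0647). The H3f3b call was also lost without PL replicate 1, PL replicate 4, LL replicate 2 or LL replicate 4, and with library totals in place of composition scaling, which moved the median of all genes from 0.01 to 0.13.

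In LBL against PBL, edgeR called 0 of 23 histone genes in either direction, against 2.74% of all tested genes higher and 4.0% lower. An unadjusted p under 0.05 was reached by 8 of them and by 3253 of all 16632 tested genes, and DESeq2 called 0. H2bc6 was at 5.52, 10.9, 7.45, 5.17 and 8.24 CPM in LBL and had the log2 fold change 0.88 ± 0.37 (adjusted p = 0.164). H2bc8 was at 0.158, 0.875, 2.33, 1.15 and 0.868 CPM in LBL and had a log2 fold change of 2.39 ± 0.93 (adjusted p = 0.124), the smallest of the 8. H2aj (0.33 ± 0.15) and H2ax (0.39 ± 0.18) had positive, as did H1f4, and H3c3 (-1.71 ± 0.83), H3f3a (-0.31 ± 0.14) and H3f3b (-0.27 ± 0.11) negative values, with adjusted p of 0.134 to 0.249. The difference between the 2 comparisons, (LBL - PBL) minus (LL - PL), was called by edgeR for 0 of 23 histone genes and 0.0241% of all tested genes, 2 histone genes (H3c3 and H2ax) and 2417 of all 16632 had an unadjusted p under 0.05, and DESeq2 called 0.

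Within LL and LBL, several replication-dependent genes followed the sorting day. Day 2 held LL replicates 1 to 4 and LBL replicate 5, and day 1 held LL replicate 5 and LBL replicates 1 to 4. Each day 2 library was above each day 1 library for 5 of the 23 histone genes, H1f4, H2ac8, H3c3, H3c4 and H4c4, and for 1.03% of all tested genes. The reverse held for 0 of 23 histone genes and for 2.31% of all tested genes. This pattern was noticed in the values and then counted. The RNA quality number was 8.4, 8.1, 7.9 and 7.9 in LL replicates 1 to 4 and 7.6 in LBL replicate 5. On day 1 it was 8.9 in LL replicate 5 and 8.6, 8.7, 8.9 and 8.0 in LBL replicates 1 to 4. The part of RNA quality in this pattern was not tested. H4c4 was at 4.96, 10.1, 5.91, 12.0 and 3.61 CPM in LL and 0.473, 0.778, 0.310, 1.38 and 14.9 in LBL. H1f4 was at 1.17, 3.37, 1.52, 3.32 and 0.329 in LL and 0.158, 1.17, 0, 0 and 1.30 in LBL, and H2ac8 at 0.876, 2.14, 0.758, 3.32 and 0.11 in LL and 0, 0.0972, 0, 0.230 and 1.74 in LBL. In each, LL replicate 5 was the lowest of its group and LBL replicate 5 the highest of its group, and for H1f4 the lowest day 2 and highest day 1 libraries were nearly equal. H3c3 was at 1.61, 0.995, 1.82, 0.692 and 0.219 CPM in LL and 0.473, 0.292, 0, 0.574 and 0.723 in LBL, and H3c4 at 0.438, 1.53, 0.607, 1.38 and 0 in LL and 0, 0.194, 0, 0 and 1.01 in LBL. The same order of days held for both. H2bc6 did not follow the day, with the highest of the 10 values, 10.9 CPM, on day 1 and the next, 9.42, on day 2. H2ac6 was at 0.876, 0.613, 2.73, 0.415 and 0 CPM in LL and 0.473, 0, 0, 0 and 5.21 in LBL. H3c6 was at 0.438, 3.06, 1.21, 2.35 and 0 in LL and 0.473, 0, 0.155, 0.345 and 2.17 in LBL. LBL replicate 5 was the highest of its group for both and the other LBL libraries were at 0.473 CPM or less. H4c14 was at 0, 2.14, 1.06, 1.66 and 1.75 CPM in LL and 1.26, 0.680, 1.09, 1.72 and 0.145 in LBL, H2bc8 at 0.876, 1.15, 0.910, 1.94 and 0.438 in LL, and H2bc21 at 4.82, 1.23, 1.36, 1.25 and 1.75 in LL and 0, 3.21, 4.03, 3.33 and 1.30 in LBL. LL and LBL overlapped for all 3.

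The 3 comparisons of BLZ945 with vehicle asked whether repopulated microglia differed in histone gene levels. In PBP against PP, edgeR called 0 of 23 histone genes, where 0.289% of all tested genes were called higher and 0.241% lower. An unadjusted p under 0.05 was reached by H3f3b (-0.32 ± 0.11), H4c14 (1.61 ± 0.58) and H2az1 (-0.41 ± 0.18), as by 1991 of all 16632 tested genes, and DESeq2 called 0. Without PP replicate 1 and PBP replicate 1, 0 of 22 tested histone genes were called, and H4c14 was 1.45 ± 0.63. H2az1, which encodes the other H2A.Z protein and is singled out after its values were seen, was at 16.6, 15.7, 14.6, 15.5 and 8.39 CPM in PBP and 20.6, 17.9, 17.0, 22.2 and 17.1 in PP, with each PBP library below each PP library and an adjusted p of 0.332. H2bc6 and H2bc4 had log2 fold changes of 0.27 ± 0.33 and 0.02 ± 0.15. In PBL against PL, 2 variants and 0 replication-dependent genes were called lower and 0 genes higher, where 11.1% of all tested genes were called lower and 11.0% higher. H3f3b had a log2 fold change -0.45 ± 0.11 (SE), adjusted p = 0.00591. H2aj, an H2A variant gene outside the clusters, was at 22.5, 37.6, 28.8 and 27.3 CPM in PL and 23.3, 22.2, 17.5, 21.9 and 16.3 in PBL (log2 fold change -0.52 ± 0.16 (SE), adjusted p = 0.0183); it was chosen after its values were seen, because it was called. Both calls were lost with sorter in the fit, at -0.06 (adjusted p = 0.989) and -0.45 (adjusted p = 0.886). H2bc6 was higher in PBL by 1.11 ± 0.44 without being called by edgeR (adjusted p = 0.0683) and was called by DESeq2 (adjusted p = 0.0273). H2bc4 was below PL in each PBL library, at -0.45 ± 0.17 (adjusted p = 0.0536). In LBL against LL, edgeR called 0 of 23 histone genes, where 0.487% of all tested genes were called higher and 0.722% lower. H2az2, H2bc4 and H3f3b had an unadjusted p under 0.05, as had 2119 of all 16632 tested genes, and DESeq2 called 1, H2az2 (adjusted p = 0.0369), which is given here for that reason. It was at 52.4, 50.6, 40.3, 52.2 and 53.1 CPM in LL and 39.4, 35.5, 36.5, 32.9 and 39.2 in LBL. Each LBL library lay below each LL library (log2 fold change -0.44 ± 0.13 (SE), adjusted p = 0.0914 with edgeR). H2bc4 was at 29.1, 20.5, 25.8, 19.4 and 17.9 CPM in LL and 10.6, 16.7, 16.8, 18.2 and 16.5 in LBL (log2 fold change -0.51 ± 0.16 (SE), adjusted p = 0.116).

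**Figure D4:**
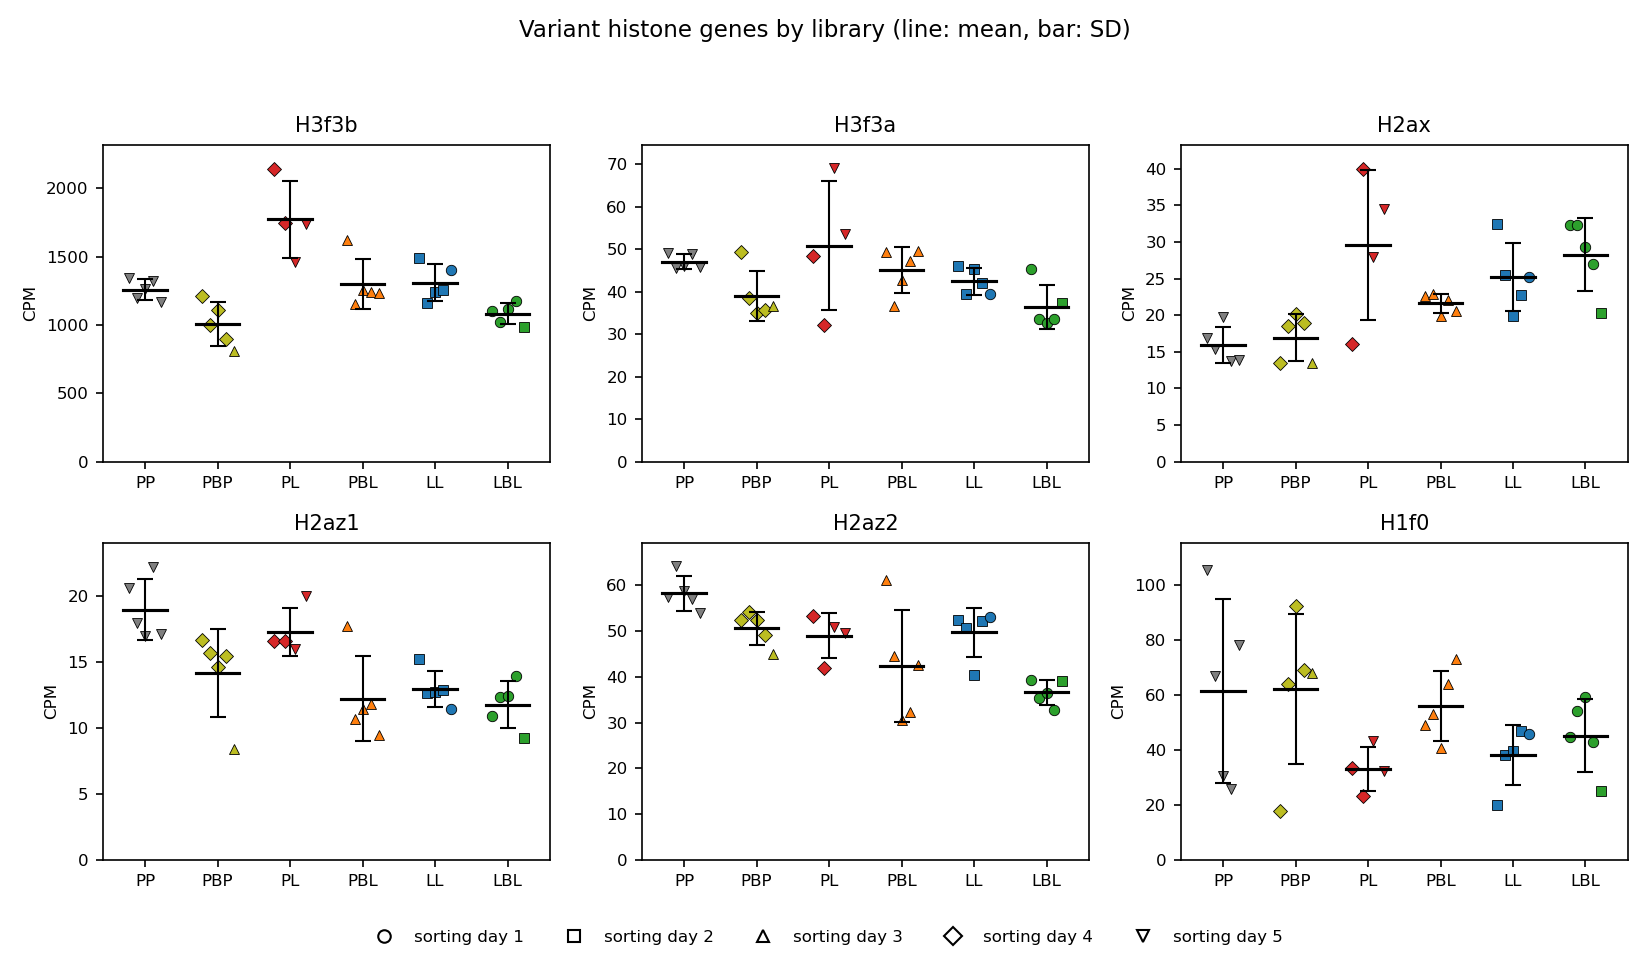
CPM of 6 variant genes in each library by group, with marker shape for sorting day, a line at the mean and a bar for the SD; all axes start at 0. H3f3b is higher in each PL library than in each PP library, and H2ax is at 13.5 to 20.2 CPM in the saline libraries and at 16.1 to 39.9 CPM in the LPS libraries.

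Over the 6 groups, H3f3b ran from 1006 CPM in PBP through LBL (1081 ± 77, with values of 1106, 1024, 1118, 1175 and 983), PP, PBL and LL to 1772 in PL. PP, PBL and LL, at means of 1258, 1299.9 and 1309.7, lay within 1 SD of PP of each other. H2ax was at 32.4, 25.5, 19.9, 22.8 and 25.2 CPM in LL and 32.3, 32.4, 29.3, 27.0 and 20.3 in LBL, means of 25.2 ± 4.64 and 28.3 ± 5.01 (SD, n = 5 each). H1f0 was at 20.0, 38.1, 39.7, 46.9 and 45.9 CPM in LL and 44.8, 53.9, 59.1, 43.0 and 24.9 in LBL. The ranges of LL and LBL overlapped. H1f2 was at 10.9, 11.9, 10.5, 10.4 and 7.01 CPM in LL and 6.31, 8.55, 13.2, 9.77 and 5.79 in LBL, and 7 of the 10 saline libraries lay above all of these. Of the genes not listed library by library, H3f3a ran from 32.3 to 69.2 CPM, H3f3c from 5.12 to 13.9 and H3f3a-ps2 from 1.24 to 4.48, and none of the 3 was called in any comparison. H4c9 had counts in 4 PP libraries and all 5 PBP libraries and 0.913 ± 0.679 CPM in PP, against 0.107 ± 0.0759 in PL. It held 3 counts over the PL libraries, fewer than over those of LL (7) or PBL (8). The gene met the reporting rule through 4 saline libraries alone and reached 10 counts in 0 LPS libraries. That rule therefore favours a higher saline level, and these values cannot show a response of H4c9 to LPS.

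**Figure D5:**
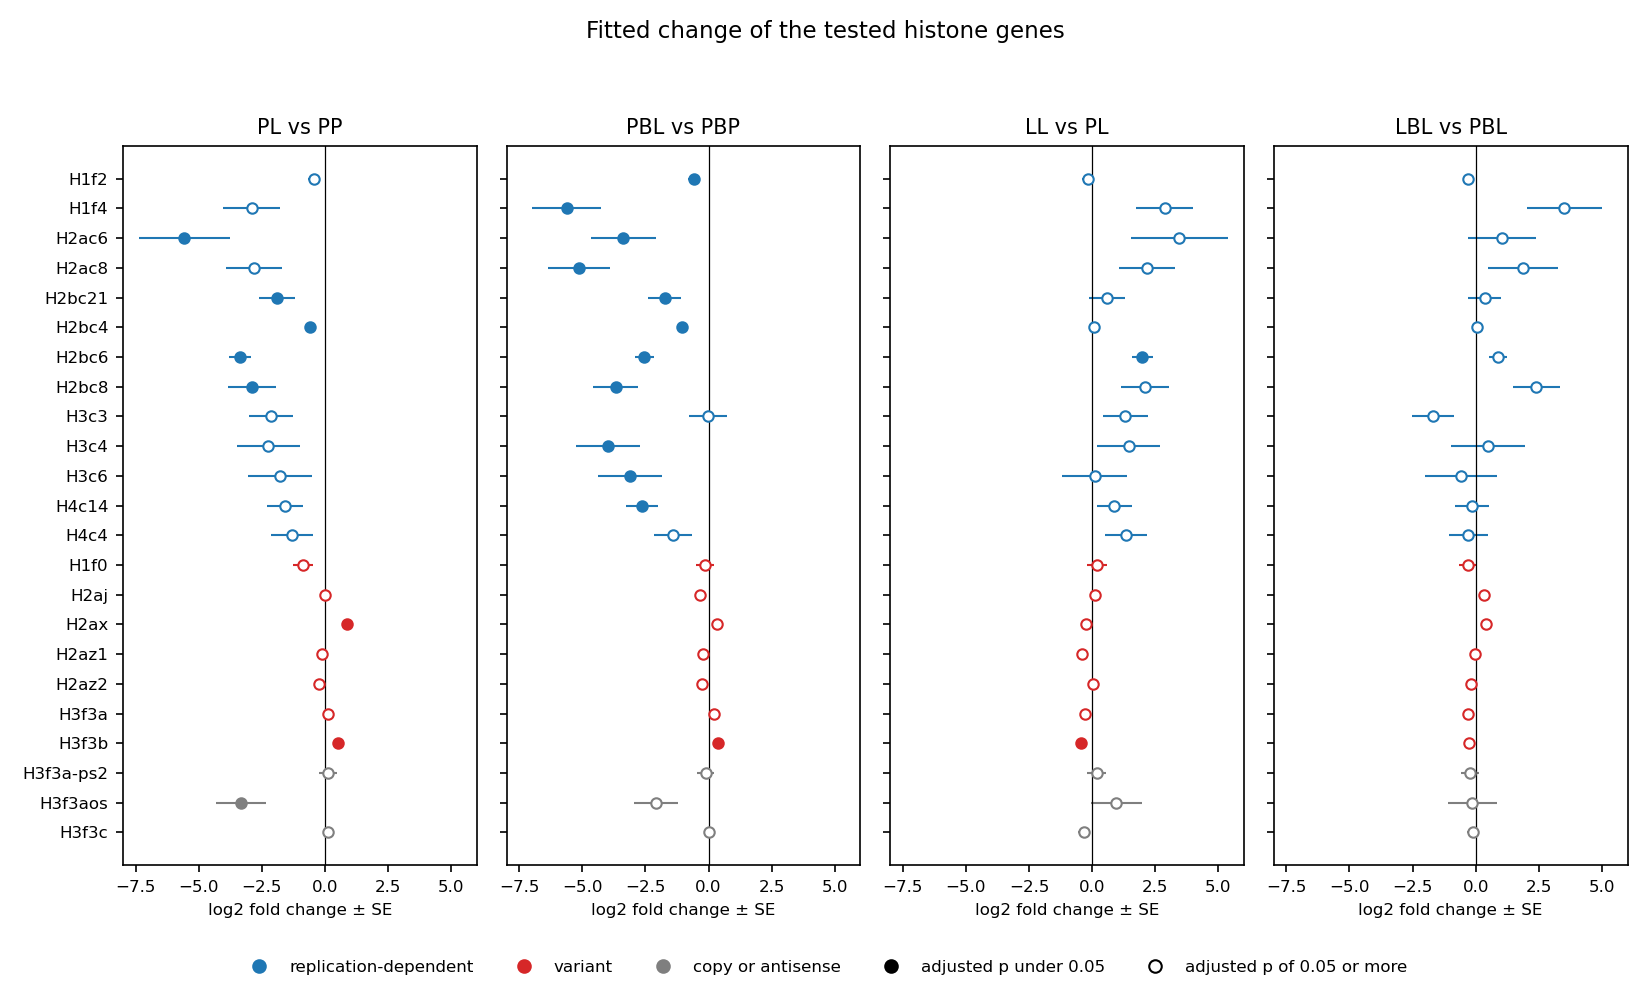
Fitted log2 fold change with its standard error for the 23 tested histone genes in 4 comparisons, with filled points at an adjusted p under 0.05 and colour for the gene class. Filled replication-dependent points lie to the left of 0 in PL against PP (5) and PBL against PBP (11), and 1 filled replication-dependent point, H2bc6, lies to the right of 0 in LL against PL.

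Genes that process histone mRNA, a list of 20 that includes Slbp and the U7 snRNP parts Lsm10 and Lsm11, were all tested. In PL against PP, 5 were called higher and 2 lower, and in PBL against PBP 6 higher and 3 lower. Over all tested genes, 14.2% were called higher and 11.9% lower in the former and 21.5% each way in the latter, so the counts of lower genes are near or below that share. Slbp itself was called higher in PL against PP (0.48 ± 0.14, adjusted p = 0.00915) and not in PBL against PBP (0.27 ± 0.13). Lsm10, a U7-specific Sm-like protein needed to cut the ends of replication-dependent histone mRNAs, was at 67.7, 54.1, 64.5, 54.9 and 52.0 CPM in PP and 27.0, 25.0, 25.9 and 27.7 in PL (log2 fold change -1.15 ± 0.16 (SE), adjusted p = 3.72e-07). It was at 58.8, 60.8, 60.2, 53.6 and 39.6 CPM in PBP and 21.1, 16.5, 20.2, 13.3 and 23.8 in PBL (log2 fold change -1.52 ± 0.15 (SE), adjusted p = 2.67e-10). The LPS libraries were below the saline libraries in both. Tut7, a terminal uridylyl transferase that marks histone mRNA for decay, rose in PL against PP (0.85 ± 0.12) and in PBL against PBP (0.70 ± 0.12). Its paralogue Tut4 fell in PL against PP (-0.50 ± 0.16, adjusted p = 0.0218) and had 0.11 ± 0.15 in PBL against PBP, without a call; Slbp and Tut4 are outside the rule for named genes and were chosen after their values were seen. Mif4gd, a partner of SLBP in translation, rose in PL against PP (0.86 ± 0.15) and fell in LL against PL (-0.60 ± 0.15, adjusted p = 0.0214), which share PL. In LL against PL that was the only call, and in LBL against PBL the only call was Ncbp2, a cap-binding protein (0.72 ± 0.18). Of 22 histone chaperone and H2A.Z exchange genes, 3 were called higher and 3 lower in PL against PP, 8 higher and 4 lower in PBL against PBP, and 5 higher and 4 lower in PBL against PL. The shares of all tested genes, given above, were 14.2% and 11.9%, 21.5% each way, and 11.0% and 11.1%, and the counts in PL against PP are close to them. Cabin1, a subunit of the complex that deposits the replacement H3 protein, fell in both LPS comparisons (-1.02 ± 0.17 and -0.85 ± 0.16), and Srcap, the ATPase of an H2A.Z exchange complex, rose in both (0.98 ± 0.25 and 1.25 ± 0.24). Asf1a, a chaperone of H3 and H4, fell in PL against PP (-1.27 ± 0.27) and was not called in PBL against PBP (-0.41 ± 0.24). Supt6, of the same list, rose in both LPS comparisons (0.73 ± 0.16 and 0.68 ± 0.16). Ep400 rose in PBL against PBP (0.66 ± 0.13) and was not called in PL against PP (0.20 ± 0.13). Hjurp, the chaperone of the centromeric H3, fell in PL against PP (-0.56 ± 0.15) and in PBL against PBP (-0.91 ± 0.14). Cenpa, that H3 itself, fell in PBL against PBP (-1.36 ± 0.46, adjusted p = 0.0166). It was the only call among the 3 tested genes of a list of histone genes outside the symbol rule. In LL against PL and LBL against PBL the chaperone list had 0 calls either way.

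Of 26 DNA replication and proliferation genes, 23 were tested. In PL against PP 1 was called higher and 3 lower, in PBL against PBP 2 higher and 5 lower, and in LL against PL 0 either way. The lower counts are close to the share of all tested genes, 11.9% and 21.5%, and the higher counts below it, 14.2% and 21.5%. Tk1, thymidine kinase of the salvage pathway, rose in both LPS comparisons (1.91 ± 0.34 and 2.59 ± 0.33). E2f2, a transcription factor of the cell cycle (-2.07 ± 0.42 and -2.74 ± 0.42), and the helicase subunits Mcm3 (-0.61 ± 0.18 and -0.80 ± 0.17) and Mcm7 (-0.84 ± 0.31 and -1.37 ± 0.31) fell in both. The helicase subunits did not all fall. Mcm4 was called higher in PBL against PBP (0.91 ± 0.28) and not called in PL against PP (0.72 ± 0.28). Mcm6 was called lower in PBL against PBP only (-0.75 ± 0.23), and Mcm2 and Mcm5 were called in neither. Tk1 fell in LBL against PBL (-1.44 ± 0.31, adjusted p = 0.00274), the only call of the list there, and PBL enters both values. Summed over the list, the groups ran from 290.1 CPM in PP to 228 in PBL, a narrower span than that of the replication-dependent histone sum, which ran from 132 in PBP (98.1 without PBP replicate 1) to 43.2 in PBL. In the libraries PP replicate 1 and PBP replicate 1 the list summed to 287 and 287 CPM, inside the range of PP and the highest of PBP (196 to 271 in the other PBP libraries). In PBL against PL the processing list had 2 calls higher and 3 lower, and the replication list 1 higher and 2 lower. Over all tested genes, 11.0% were called higher and 11.1% lower there. In PBP against PP and in LBL against LL the 4 lists had 0 calls either way.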

How the data were processed

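RNA was measured in 29 libraries of sorted mouse microglia in 6 groups, taken from the sample titles. Per the labels' protocols, polyadenylated RNA was sequenced from a low-input kit. The deposited counts are raw reads per gene in 1 column per library; the submitters' processing notes name cutadapt 2.10, TopHat, SAMtools 1.10, HTSeq 0.11.0 and build GRCm39, while the settings of these tools are not stated there. The RNA quality number is a deposited score, and sorting day comes from the same deposited table. Library totals (5670450 to 12671476 counts) limit the precision of genes with few reads, and intervals cover counting error only.

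Counts were fitted in edgeR 4.0.16 (R 4.3.3; filterByExpr, TMM scaling, robust quasi-likelihood, 1 coefficient per group, all 29 libraries, 23 residual degrees of freedom), with two-sided tests and Benjamini-Hochberg adjustment over 16632 genes and calls at an adjusted p under 0.05. The procedure was tested on simulated data, where it recovered nearly all large changes and missed many smaller ones; the criterion for passing was then limited to the large changes. A change that was not called is therefore not shown to be absent. The SE of a log2 fold change was taken as its absolute value divided by the square root of the F statistic. It is an approximation, and for genes with few reads a rough one. Alternatives were DESeq2 1.42.0, other scaling and filters, only the groups compared, sorter, a replicate block and each library left out; sorting day in the fit and leaving out PP replicate 1 with PBP replicate 1 were chosen after seeing the data. Members and lists were chosen with earlier results of these data known. Values in every library are given for genes with the 12 largest called changes and for the 2 most abundant of each class; companion lists are shown by counts and by up to 4 genes with the smallest adjusted p per comparison. Promoters and transcripts come from RefSeq (GRCm38.p6) and GENCODE (GRCm38) and were matched by gene, not by coordinates of the counts. Replicates of a group differed by more than sampling noise (lowest chi-square per degree of freedom 5.47 over 56 pairs).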

Additional observations from a re-analysis of the deposited data

Results flagged for a closer look

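Within each group, a library was singled out where its gap to the nearest other library took a larger share of the group's range than Dixon's 95% critical value. Of 144 sets of 1 gene in 1 group, 37 had such a library, where chance gives about 1 in 20. That share does not hold for a set in which all libraries but 1 are at 0, which is always singled out (H1f4 in PBL, and H2ac6 and H3c4 in PL), nor closely for other genes with few counts. Of the 37, 15 were in PP replicate 1 or PBP replicate 1. In PP replicate 1 these were H1f4 at 5.7, H2ac6 at 12.8, H2ac8 at 8.55, H3c6 at 18.8, H4c14 at 5.33 and H4c4 at 18.7 CPM, each the highest of PP. In PBP replicate 1 they were H1f4 at 9.19, H2ac6 at 22.7, H2ac8 at 14.8, H2bc8 at 8.00, H3c4 at 9.51, H3c6 at 36.8, H3f3a at 49.3, H4c14 at 18.2 and H4c4 at 31.8 CPM, each the highest of PBP. LBL replicate 5 was the highest of its group for H2ac6 at 5.21, H2ac8 at 1.74, H3c4 at 1.01, H3c6 at 2.17 and H4c4 at 14.9 CPM, and was the only LBL library sorted on day 2. The library PBL replicate 1 was the highest of its group for H1f4 at 0.179, H2az1 at 17.7, H2bc21 at 4.12 and H3f3b at 1622 CPM. The library PL replicate 3 was the highest of its group for H2ac6 at 0.237 and H3c4 at 1.07 CPM. The library PBP replicate 5 was the lowest of its group for H2az1 at 8.39 CPM. The library PL replicate 4 was the highest of its group for H2az1 at 20.0 CPM. The library LL replicate 3 was the lowest of its group for H2az2 at 40.3 CPM. The library LL replicate 1 was the highest of its group for H2bc21 at 4.82 CPM. The library LBL replicate 1 was the lowest of its group for H2bc4 at 10.6 CPM. The library PBL replicate 3 was the highest of its group for H2bc6 at 9.35 and H3c4 at 0.680 CPM. The library LL replicate 2 was the highest of its group for H2bc6 at 9.42 CPM. The library PBL replicate 5 was the highest of its group for H3f3aos at 1.09 CPM. The library LBL replicate 3 was the lowest of its group for H3f3aos at 0 CPM. The library PP replicate 4 was the highest of its group for H3f3c at 13.9 CPM. The part of RNA quality or other features of these libraries was not tested.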

How the results depend on the processing

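Of 24 calls of a histone gene in a comparison, 24 were kept with DESeq2, 24 with a filter of 10 counts in 4 libraries, 23 with RLE size factors, 23 with library totals, 18 with no filter beyond 1 count, 11 of 15 with only the groups compared, 11 with sorter in the fit and 8 of 21 with sorting day in the fit. Without PP replicate 1 and PBP replicate 1, 15 of 19 were kept, 3 lost and 1 reversed. In PL against PP, the 6 lower calls became 3 with only the groups compared and 3 with sorting day. In PBL against PBP, the 11 lower calls became 7 with no filter, 5 with only the groups compared, 2 with sorter and 2 with sorting day. In LL against PL, the 1 higher call became 0 with only the groups compared and with sorter, and the 1 lower call became 0 with library totals, with only the groups compared and with sorter. In PBL against PL, the 0 higher calls became 1 with only the groups compared and 1 with DESeq2, and the 2 lower calls became 1 with only the groups compared, 0 with sorter and 0 with sorting day. In LBL against LL, the 0 lower calls became 1 with DESeq2. With only the groups compared, the count filter was run again on fewer libraries, and 15 of the 24 calls had a value. The smaller counts in that setting therefore include genes that were not tested in it. Apart from the smaller number of libraries where only the groups compared were fitted, the cause was not tested. Sorting day gave no value for LL against PL, LBL against PBL or their difference, since no day is shared.

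With each library left out in turn, 188 of 228 values of called genes were kept, 39 were lost and 1 was reversed. Lower calls ranged from 3 to 8 in PL against PP (3 without PL replicate 1 or 4), from 7 to 12 in PBL against PBP (7 without PBL replicate 4), from 0 to 1 in LL against PL (0 without PL replicate 1 or 4 or LL replicate 2 or 4), from 0 to 1 in LBL against PBL (1 without LBL replicate 5), from 1 to 4 in PBL against PL (1 without PL replicate 2 or PBL replicate 3 or 5, 4 without PBL replicate 1) and from 0 to 1 in LBL against LL (1 without LBL replicate 5). Higher calls ranged from 0 to 1 in LBL against PBL (1 without PBL replicate 3) and from 0 to 1 in PBL against PL (1 without PL replicate 1 or 2 or PBL replicate 5). The log2 fold change of H3c6 in PBL against PBP ranged from -3.61 to 0.16 and reversed without PBP replicate 1; it was 0.16 without PP replicate 1 and PBP replicate 1.

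With the replicate number as a block, 22 of the 24 calls were kept; lower calls were 7 in PL against PP, 9 in PBL against PBP, 1 in LL against PL and 2 in PBL against PL, and higher calls were 2, 1, 1 and 0. The numbers do not pair the libraries: deviations from the group means correlated at a median of 0.013 over 70 same-number pairs (-0.31 to 0.37) and 0.00086 over 280 other pairs. Few reads limit most replication-dependent genes, so smaller changes may not have been called.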
